A study of Mus musculus with 12 samples.

Results

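The genes described here encode the core machinery that divides, fuses and clears mitochondria. They are 10 of the 46517 genes counted in a ribosome pull-down study of the mouse ventromedial nucleus (VMN) of the hypothalamus, chosen by symbol and each found under 1 Ensembl identifier. Translating ribosome affinity purification (TRAP) expresses a GFP-tagged ribosomal protein in chosen cells, here SF1 cells of the VMN, and pulls down their ribosomes with the RNA they carry. The 4 groups of 3 libraries were DN outputs, CTRL outputs, DN inputs and CTRL inputs, where an output is the pulled-down RNA and an input the RNA of the dissected tissue of the same pool of 6 animals. DN animals received an adeno-associated virus (AAV) for a dominant-negative mutant of AMPK, a kinase that senses falling cellular energy, and CTRL animals, by their characteristics, lacked it. All animals received an AAV for GFP-L10 and were on regular chow and fasted overnight. The treatment text names the dominant-negative virus for the CTRL samples too, and the characteristics were followed. The sources used here do not give the age, sex or strain of the mice, nor the means that limited GFP-L10 to SF1 cells.

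Mitochondria are remodelled by large GTPases. In fission the cytosolic GTPase DRP1, encoded by Dnm1l, is recruited by the outer membrane proteins MFF, FIS1 and MIEF1 (also called MiD51), and AMPK is known to phosphorylate MFF. In fusion MFN1 and MFN2 join outer membranes and OPA1 joins inner membranes, while the protease OMA1 cuts OPA1 under stress. In mitophagy the kinase PINK1 marks damaged mitochondria for removal, and BNIP3 is an outer membrane receptor that is induced by low oxygen. In VMN neurons these genes are of interest because mitochondrial shape has been tied to glucose sensing.

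The promoter windows of 4 members are shown, which were picked by their levels. Among pairs of the 8 more abundant members, Mfn1 and Mfn2 differed most over the 12 libraries, and Opa1 and Dnm1l least. The levels were not tested against the motifs. Each window runs from 250 bases before to 50 bases after an annotated start, 5′ to 3′ in the direction of transcription, from RefSeq on GRCm38.p6 (Mfn1 at chr3:32529232-32529531, plus strand, Mfn2 at chr4:147904649-147904948, minus strand, Opa1 at chr16:29579084-29579383, plus strand, and Dnm1l at chr16:16358982-16359281, minus strand). Capitals mark matches, on either strand, to 5 motifs: GCGCA and GCGC with any 1 base between them (NRF1), ACGTG (HIF and other factors), CCGGAAGT (ETS factors), TGACGT (CREB) and TCAAGGTCA (estrogen-related receptors). Matches to ACGTG and TGACGT can overlap, as they do at the start of Mfn2.
Mfn1: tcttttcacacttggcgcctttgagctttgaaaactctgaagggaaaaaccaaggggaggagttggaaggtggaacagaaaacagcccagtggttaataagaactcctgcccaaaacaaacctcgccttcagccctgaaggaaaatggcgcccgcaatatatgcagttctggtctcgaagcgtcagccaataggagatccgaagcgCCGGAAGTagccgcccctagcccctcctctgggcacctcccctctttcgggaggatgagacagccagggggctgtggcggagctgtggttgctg
Mfn2: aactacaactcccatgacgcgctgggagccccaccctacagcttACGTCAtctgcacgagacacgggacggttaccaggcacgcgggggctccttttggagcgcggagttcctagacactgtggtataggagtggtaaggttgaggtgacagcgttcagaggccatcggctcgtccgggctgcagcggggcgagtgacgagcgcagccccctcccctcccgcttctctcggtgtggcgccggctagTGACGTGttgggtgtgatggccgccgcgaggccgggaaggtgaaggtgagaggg
Opa1: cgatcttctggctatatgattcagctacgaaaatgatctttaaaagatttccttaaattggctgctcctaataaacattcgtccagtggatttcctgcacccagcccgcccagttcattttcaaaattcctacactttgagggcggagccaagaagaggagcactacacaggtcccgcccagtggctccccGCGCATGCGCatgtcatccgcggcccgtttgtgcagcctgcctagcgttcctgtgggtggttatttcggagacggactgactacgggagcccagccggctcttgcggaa
Dnm1l: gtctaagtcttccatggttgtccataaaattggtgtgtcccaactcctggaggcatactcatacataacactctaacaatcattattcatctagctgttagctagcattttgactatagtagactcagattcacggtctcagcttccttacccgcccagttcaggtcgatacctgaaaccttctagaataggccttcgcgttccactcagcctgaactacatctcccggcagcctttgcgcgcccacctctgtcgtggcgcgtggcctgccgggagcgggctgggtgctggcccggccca
The Mfn1 window held CCGGAAGT, the Opa1 window the NRF1 motif as GCGCATGCGC, which reads as a match on both strands, and the Mfn2 window TGACGT on each strand and ACGTG. The Dnm1l window, whose start lies 72 bases from the GENCODE start of the gene, held none of the 5. For each member only the window nearest the GENCODE start was used. There were 3 windows for Mfn2 and 2 each for Dnm1l, Fis1 and Mff, so the matches given are not all those of a gene's annotated starts. Over the 10 members, the NRF1 motif was in 4 windows (Opa1, Pink1, Oma1 and Bnip3), CCGGAAGT in 3 (Mfn1, Fis1 and Mief1), TGACGT in 2 (Mfn2 and Mief1), ACGTG in 2 (Mfn2 and Bnip3) and TCAAGGTCA in 0. Of all 32817 windows of this length, 4.59% held the NRF1 motif, 3.89% CCGGAAGT, 7.51% TGACGT, 19.6% ACGTG and 0.424% TCAAGGTCA. A match describes letters and not a bound site.

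Libraries held 34635492 to 55464854 gene counts. Genes of the mitochondrial chromosome took 24.1 to 26.1% of these in DN outputs, 17.9 to 24.8% in CTRL outputs, 77.6 to 79.7% in DN inputs and 74.9 to 77.0% in CTRL inputs, so outputs held more counts of nuclear genes. The labelled cells are described by 10 VMN neuron markers, a list chosen with earlier results of these data known. Their summed level was 2038 to 2642 CPM in DN outputs and 1742 to 1997 in CTRL outputs, against 932 to 1143 in DN inputs and 861 to 985 in CTRL inputs. Of the 10, Dlk1 went the other way and was lower in outputs of both conditions. Levels here and below are normalized CPM (counts scaled to a common library size with TMM), and p-values are from edgeR's quasi-likelihood test, adjusted over all genes of a comparison. Nothing in the labels says more of how pools were formed. The p-values measure the spread between the libraries of a group, where differences between pools and between library preparations cannot be told apart. The main output-input and interaction tests treated the input and output of the same pool as independent libraries.

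The 10 genes spanned a wide range of levels. Per kb of annotated exon, Dnm1l was the highest in every group, at 51.3 ± 6.82 CPM per kb in DN outputs, 41.8 ± 0.238 in CTRL outputs, 33.9 ± 0.509 in DN inputs and 40.2 ± 7.26 in CTRL inputs (SD, n = 3 each). In no group did the libraries of Dnm1l overlap those of the next gene. Opa1 and Pink1 followed in every group (14.7 to 23.8 CPM per kb as group means), and their libraries overlapped in all 4 groups. Mff and Mfn2 came next in outputs, at 12.7 and 12.6 CPM per kb in DN outputs, where they overlapped, and at 11.9 and 9.59 in CTRL outputs, where they did not. Bnip3 was at 3.64 CPM per kb in DN outputs and 3.75 in CTRL outputs, apart from its neighbours in the order there. Fis1, Oma1, Mief1 and, in outputs, Mfn1 lay between 0.533 and 1.57 CPM per kb in outputs, and neighbours among these 4 overlapped in both output groups. In CTRL outputs Dnm1l was above 98.5% of the detected genes by this measure and Fis1 above 56.8%. Exon lengths are those of all annotated isoforms together, so the isoforms present can shift this order. Every sample was also linearly amplified, and the part of amplification in the order of different genes was not tested.

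**Figure D1:**
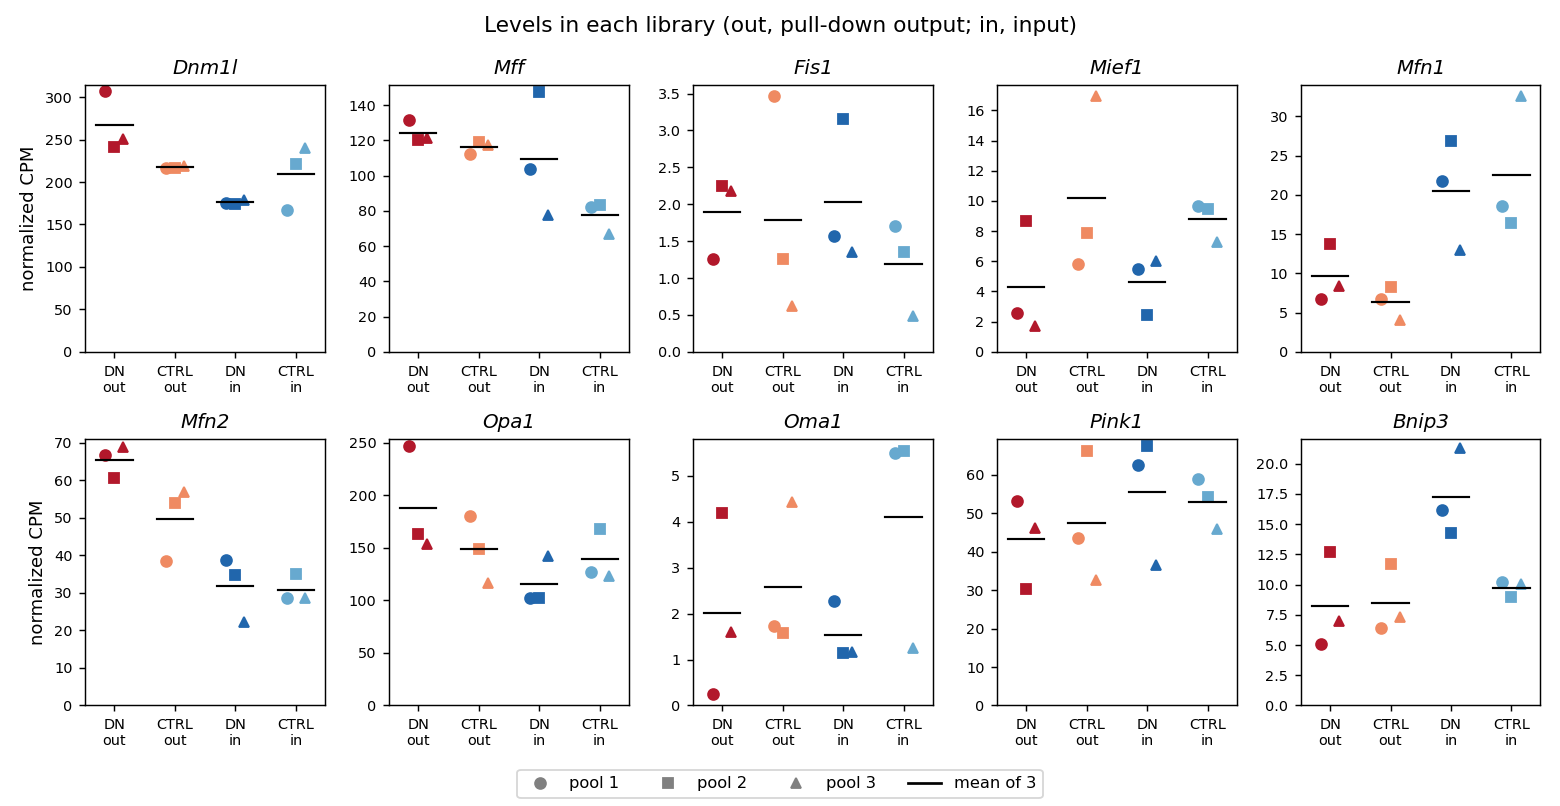
Normalized CPM of the 10 genes (y axis, linear and from 0, with its own scale for each gene) in DN outputs, CTRL outputs, DN inputs and CTRL inputs (x axis). Symbols are single pools and lines means of 3. Mfn2 lies higher and Mfn1 lower in outputs than in inputs of CTRL animals, while Mief1, Oma1 and Fis1 scatter widely within groups.

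Among the fission genes, Dnm1l (ENSMUSG00000022789, GRCm38 chromosome 16, 16312230 to 16358959, minus strand) had 307, 242 and 251 CPM in the DN outputs of pools 1 to 3 and 217, 217 and 219 CPM in the CTRL outputs. Its inputs had 175, 174 and 179 CPM in DN and 167, 221 and 240 CPM in CTRL. All DN outputs were above all CTRL outputs and above all DN inputs, whereas CTRL outputs and CTRL inputs overlapped. Mff (ENSMUSG00000026150, chromosome 1, 82724890 to 82752394, plus strand) had 131, 120 and 121 CPM in DN outputs and 112, 119 and 117 CPM in CTRL outputs. In inputs Mff had 104, 147 and 77.4 CPM in DN and 82.2, 83.2 and 67.1 CPM in CTRL. The outputs were close to each other in both groups, the DN outputs just above the CTRL outputs, and the DN inputs spread from below the CTRL inputs' highest to above every output.

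The other DRP1 receptors were rare in these libraries. Mief1 (ENSMUSG00000022412, chromosome 15, 80234018 to 80253371, plus strand) had 2.58, 8.67 and 1.70 CPM in DN outputs, 5.84, 7.88 and 16.9 in CTRL outputs, 5.50, 2.43 and 6.04 in DN inputs and 9.67, 9.45 and 7.27 in CTRL inputs. All DN inputs were below all CTRL inputs, and outputs overlapped. Fis1 (ENSMUSG00000019054, chromosome 5, 136953275 to 136966234, plus strand) had 1.25, 2.25 and 2.19 CPM in DN outputs, 3.47, 1.26 and 0.624 in CTRL outputs, 1.57, 3.16 and 1.36 in DN inputs and 1.71, 1.36 and 0.491 in CTRL inputs. These came from 11 to 243 counts per library, and the groups overlapped throughout.

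The mitofusins had values on opposite sides of input in the pull-down, without a call by edgeR as designed. Mfn2 (ENSMUSG00000029020, chromosome 4, 147873599 to 147904704, minus strand) had 66.7, 60.5 and 68.8 CPM in DN outputs and 38.8, 34.8 and 22.2 CPM in DN inputs. It had 38.4, 54.0 and 56.9 CPM in CTRL outputs and 28.5, 35.0 and 28.5 CPM in CTRL inputs. Every output was above every input of the same condition, and every DN output was above every CTRL output. Mfn1 (ENSMUSG00000027668, chromosome 3, 32529465 to 32579239, plus strand) had 6.72, 13.8 and 8.40 CPM in DN outputs and 21.8, 26.8 and 13.03 CPM in DN inputs. It had 6.72, 8.25 and 4.06 CPM in CTRL outputs and 18.5, 16.5 and 32.6 CPM in CTRL inputs. CTRL outputs were all below CTRL inputs, and DN outputs and DN inputs overlapped in 1 pair of libraries from different pools.

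The ratio of the pair within a library does not depend on scaling between libraries. It was singled out after the values were seen and is given without a test. Counts of Mfn2 per kb over counts of Mfn1 per kb were 11.7, 5.18 and 9.65 in DN outputs and 6.73, 7.71 and 16.5 in CTRL outputs. The same ratio was 2.10, 1.53 and 2.004 in DN inputs and 1.81, 2.50 and 1.03 in CTRL inputs. Output and input libraries did not overlap, while DN and CTRL overlapped within each fraction.

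**Figure D2:**
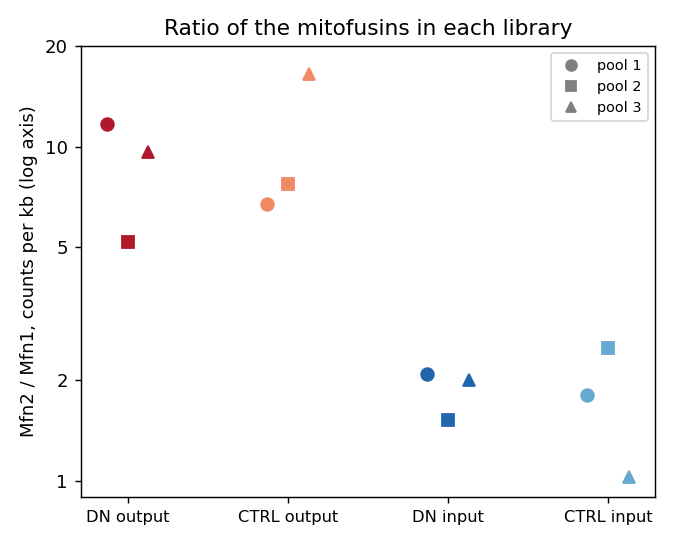
Ratio of Mfn2 to Mfn1 in counts per kb of exon (y axis, log scale) in each library of the 4 groups (x axis), with a symbol for each pool. Outputs lie between 5.18 and 16.5 and inputs between 1.03 and 2.50.

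Of the inner membrane pair, Opa1 (ENSMUSG00000038084, chromosome 16, 29579334 to 29654884, plus strand) had 247, 163 and 153 CPM in DN outputs and 102, 102 and 142 CPM in DN inputs. It had 180, 148 and 116 CPM in CTRL outputs and 127, 168 and 123 CPM in CTRL inputs. DN outputs were above DN inputs without overlap, whereas CTRL outputs and CTRL inputs overlapped. Oma1 (ENSMUSG00000035069, chromosome 4, 103313812 to 103371868, plus strand) was rare, at 0.251, 4.19 and 1.61 CPM in DN outputs, 1.73, 1.57 and 4.43 in CTRL outputs, 2.28, 1.13 and 1.16 in DN inputs and 5.50, 5.55 and 1.25 in CTRL inputs. Its counts in the DN outputs went as low as 17 and as high as 281, and no groups were apart.

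Of the mitophagy genes, Pink1 (ENSMUSG00000028756, chromosome 4, 138313409 to 138326307, minus strand) had 53.3, 30.2 and 46.2 CPM in DN outputs and 43.6, 66.2 and 32.6 in CTRL outputs. In inputs it had 62.7, 67.6 and 36.6 CPM in DN and 58.9, 54.2 and 46.0 in CTRL. All 4 groups overlapped. Bnip3 (ENSMUSG00000078566, chromosome 7, 138890836 to 138909519, minus strand) had 5.10, 12.7 and 6.97 CPM in DN outputs and 6.41, 11.7 and 7.36 in CTRL outputs, against 16.1, 14.2 and 21.3 CPM in DN inputs and 10.2, 8.95 and 10.1 in CTRL inputs. The DN inputs were above the CTRL inputs and above the DN outputs without overlap. Annotated exons of Pink1 share bases with the microRNA genes Mir7019 and Gm27646, and those of Mff with C430014B12Rik on the other strand. Reads there may have been set aside as ambiguous. For Mff this turns on the strand setting, which the sources used here do not give.

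Output was set against input to ask how the ribosome-bound RNA of SF1 cells differs from the tissue. In DN animals 0 of the 10 genes passed the adjusted threshold of 0.05 by edgeR, where 3.38% of 13041 tested genes did (1.84% higher and 1.54% lower). At an unadjusted p below 0.05 there were 3 members, Dnm1l, Mfn2 and Opa1, where 15.7% of all genes lay. DESeq2 called 2 members, Mfn2 (adjusted p = 0.0168) and Dnm1l (adjusted p = 0.0351), and limma-voom called 0. Dnm1l was at a log2 fold change of 0.59 ± 0.16 (SE, edgeR adjusted p = 0.0773), with a 95% interval of 1.17 to 1.92 as a fold. Mfn2 was at 1.02 ± 0.29 (adjusted p = 0.0884, interval 1.3 to 3.17-fold) and Opa1 at 0.69 ± 0.23 (adjusted p = 0.146, interval 1.14 to 2.28-fold). Each of these 3 was higher in outputs in 3 of 3 pools. Mfn1 was at -1.10 ± 0.52 and Bnip3 at -1.07 ± 0.55 (adjusted p = 0.332 and 0.383), both lower in 3 of 3 pools. Groups did not overlap for 3 members that were higher (11.6% of all genes) and for 1 that was lower, Bnip3 (10.9%). The median of the 10 was 0.03, against 0.00 over all genes tested. Whether Mfn2 and Dnm1l passed turned on the setting. In 1 fit of all 12 libraries their adjusted p was 0.0357 and 0.0432, and without a filter on low counts that of Mfn2 was 0.0359 and that of Opa1 0.0352.

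In CTRL animals the order of the members was partly different. Again 0 of the 10 passed by edgeR, where 3.2% of 13456 genes did (1.78% higher and 1.42% lower). At an unadjusted p below 0.05 there were 3, Mfn1, Mff and Mfn2, where 16.3% of all genes lay. Mfn1 was just beyond the threshold, at -1.84 ± 0.45 (edgeR adjusted p = 0.0507), with an interval of 0.141 to 0.550-fold. Its adjusted p was below the threshold in 5 of 12 alternatives and ranged from 0.000865 with DESeq2 to 0.268 without CTRL pool 3, where the log2 fold change was -1.23. Mff was at 0.57 ± 0.17 (adjusted p = 0.0971, but 0.0362 with DESeq2) and Mfn2 at 0.69 ± 0.25 (adjusted p = 0.188). DESeq2 thus called 2 members, Mfn1 and Mff, and limma-voom 0. Dnm1l and Opa1 were at 0.05 ± 0.17 and 0.08 ± 0.20, with intervals of 0.802 to 1.33-fold and 0.784 to 1.43-fold. Groups did not overlap for 2 members that were higher, Mfn2 and Mff (12% of all genes), and for 1 that was lower, Mfn1 (11.2%). The median of the 10 was 0.06, against 0.02 over all genes.

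Within pools, the log2 ratio of output to input (CPM plus 1) of Mfn2 was 0.77, 0.78 and 1.59 in the DN pools and 0.42, 0.61 and 0.97 in the CTRL pools, and that of Mfn1 was -1.56, -0.91 and -0.58 in the DN pools and -1.34, -0.92 and -2.73 in the CTRL pools. Mfn2 was thus above 0 and Mfn1 below 0 in 6 of 6 pools, and their fitted log2 fold changes kept these signs under each alternative of both comparisons. Dnm1l had 0.81, 0.47 and 0.48 in the DN pools and 0.38, -0.03 and -0.13 in the CTRL pools. Opa1 had 1.27, 0.67 and 0.11 in the DN pools and 0.50, -0.17 and -0.08 in the CTRL pools. For Mff the values were 0.34, -0.29 and 0.64 in the DN pools and 0.44, 0.51 and 0.79 in the CTRL pools. Bnip3 had -1.49, -0.16 and -1.48 in the DN pools and -0.60, 0.36 and -0.41 in the CTRL pools. Pink1, Fis1, Mief1 and Oma1 had pools on both sides of 0 in both DN and CTRL. The median over 7874 genes of at least 5 CPM was 0.07 to 0.12 in the 6 pools.

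**Figure D3:**
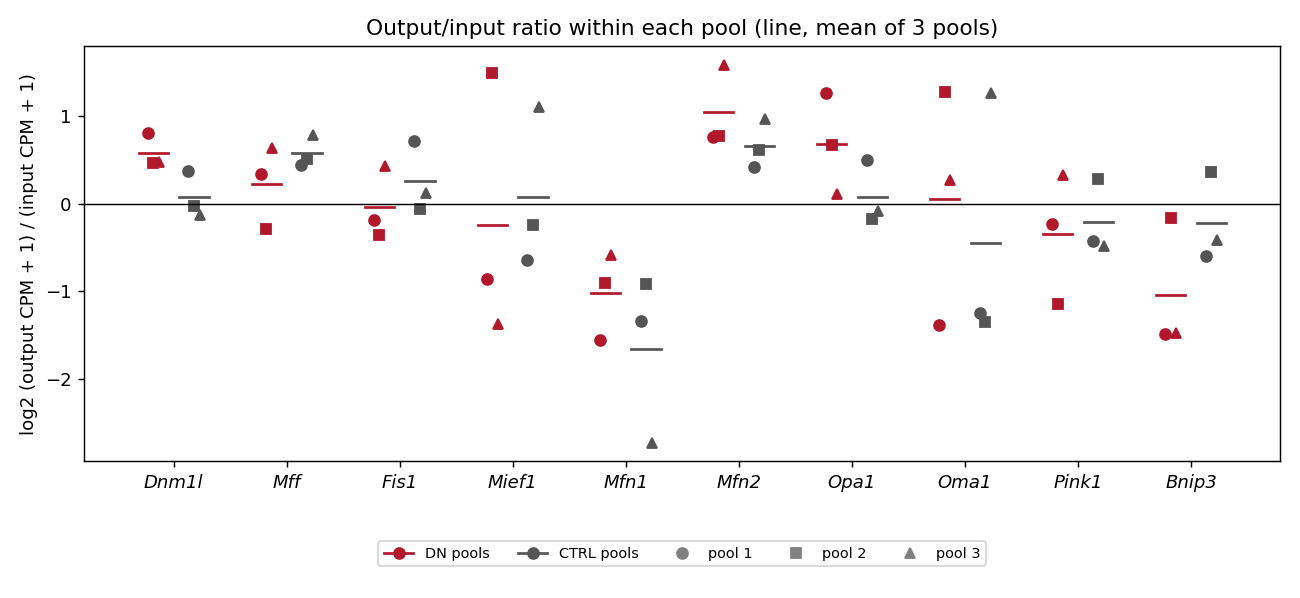
Log2 ratio of output to input (CPM plus 1, y axis) within each of the 6 pools for the 10 genes (x axis). Red symbols are DN pools, grey symbols CTRL pools and lines means of 3. Mfn2 lies above 0 and Mfn1 below 0 in all 6 pools.

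Markers of other cells moved with the pull-down. Of 10 astrocyte markers 7 were lower in DN outputs and 8 in CTRL outputs, with medians of -2.27 and -1.95 and summed levels of 1156 to 1237 CPM in DN outputs and 1635 to 1867 in CTRL outputs, against 3419 to 3700 in DN inputs and 3287 to 4039 in CTRL inputs. Of 10 oligodendrocyte markers 8 were lower in DN outputs and 7 in CTRL outputs (medians -2.26 and -2.19), with summed levels of 224 to 307 CPM in DN outputs and 254 to 400 in CTRL outputs. Inputs had 1126 to 1311 CPM of these in DN and 1066 to 1329 in CTRL. No astrocyte or oligodendrocyte marker was at 0 in a group. Of 10 VMN neuron markers 7 were higher in DN outputs and 9 in CTRL outputs (medians 1.48 and 1.65), and 1 was lower in each, Dlk1. Of 10 pan-neuronal markers 3 were higher in DN outputs and 4 in CTRL outputs, and of 7 markers of GABA neurons 2 were lower in DN outputs and 1 in CTRL outputs. Outputs thus still held RNA of astrocyte and oligodendrocyte markers, and whether it came from cells other than SF1 cells was not tested. The part of these markers in the values of the 10 mitochondrial genes was not tested either. Between DN and CTRL, fewer cells of a type and less RNA per cell cannot be told apart in such bulk samples.

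The question in the series title is what differs without AMPK activity, which was asked in outputs for SF1 cells and in inputs for the tissue. In outputs 0 of the 10 genes passed by edgeR, DESeq2 or limma-voom, where 0% of 13333 genes did by edgeR, and none had an unadjusted p below 0.05 (5.41% of all genes). DN outputs were above CTRL outputs without overlap for 3 members, Mfn2, Dnm1l and Mff (5.17% of all genes), and below for 0 (5.87%). Dnm1l was at 0.29 ± 0.15 (SE, edgeR adjusted p = 0.948), with an interval of 0.970 to 1.54-fold, Mfn2 at 0.39 ± 0.24 (0.913 to 1.88-fold), Opa1 at 0.34 ± 0.23 (0.894 to 1.78-fold) and Mff at 0.10 ± 0.17 (0.826 to 1.38-fold). Pink1 was at -0.14 ± 0.33, with an interval of 0.554 to 1.5-fold. These intervals bound what the libraries could show for the 5 abundant genes. For the rare ones they were wide: Mief1 was at -1.24 ± 0.76 (0.133 to 1.34-fold), Mfn1 at 0.60 ± 0.59 (0.618 to 3.71-fold), Bnip3 at -0.05 ± 0.59 (0.395 to 2.38-fold), Oma1 at -0.36 ± 1.13 (0.141 to 4.33-fold) and Fis1 at 0.08 ± 1.07 (0.209 to 5.38-fold). The median of the 10 was 0.09, against 0.01 over all genes. Beside this, of 13 mitochondrially encoded genes 7 were tested, and 5 were at 0 in DN outputs and 5 in CTRL outputs. A count of 0 need not mean absent RNA, as reads without a unique alignment were left out, and their part was not tested. The 7 tested were all positive, with a median of 0.37. Summed levels of the list overlapped, with 26248 to 26851 CPM in DN outputs and 15913 to 26305 in CTRL outputs. In output against input the medians of these genes were -3.02 in DN and -3.04 in CTRL. The summed astrocyte markers, with 1156 to 1237 CPM in DN outputs and 1635 to 1867 in CTRL outputs, did not overlap. Nor did the summed pan-neuronal markers, with 8290 to 9179 CPM in DN outputs and 7304 to 7729 in CTRL outputs, or the VMN neuron sums given above. The sums of the GABA neuron markers, with 203 to 223 CPM in DN outputs and 244 to 315 in CTRL outputs, did not overlap either. Of 6 GABA neuron markers tested, however, 3 were positive (median 0.20), so their median and their sum pointed in opposite directions. Of 10 pan-neuronal markers 7 were positive (median 0.17), and of 10 VMN neuron markers 8 (median 0.33). Of 9 astrocyte markers tested 3 were positive (median -0.22), and Slc1a2 was at -0.63 ± 0.11 (edgeR adjusted p = 0.88). The fall in their sum is thus not one of each astrocyte marker. Of 9 oligodendrocyte markers tested 0 were positive (median -0.27). By gene, 0 markers of these lists passed between DN and CTRL outputs. The part of these levels in the values of the members was not tested.

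In inputs 0 of the 10 passed by edgeR, DESeq2 or limma-voom, where 0.00756% of 13221 genes did by edgeR, and 0 had an unadjusted p below 0.05 (4.46% of all genes). Bnip3 was the member whose DN inputs were all higher (5.17% of all genes), at 0.82 ± 0.41 (adjusted p = 0.997), with an interval of 0.945 to 3.30-fold. Mief1 was the member whose DN inputs were all lower (5.37%), at -0.92 ± 0.59 (0.216 to 1.3-fold). Mff was at 0.50 ± 0.24, with an interval of 0.977 to 2.04-fold, Opa1 at -0.27 ± 0.21 and Dnm1l at -0.25 ± 0.17. Pink1 and Mfn2 were at 0.07 ± 0.27 and 0.06 ± 0.31, and their signs turned with upper quartile scaling (-0.00 and -0.01). Mfn1 was at -0.13 ± 0.40, Fis1 at 0.77 ± 1.04 and Oma1 at -1.42 ± 0.92. The median of the 10 was -0.04, against 0.03 over all genes. Here too the mitochondrially encoded genes were positive at 8 of 8 tested, of 13 listed (median 0.38, 0 passed). Their summed levels were 157126 to 164850 CPM in DN inputs and 113220 to 141977 in CTRL inputs, without overlap. The pan-neuronal sums of 5619 to 5973 CPM in DN inputs and 4786 to 5310 in CTRL inputs did not overlap either. The same held for ependymal markers, with 7.85 to 12.9 CPM in DN inputs and 2.3 to 6.38 in CTRL inputs. It held narrowly for the listed hypoxia-response genes, with 357 to 502 CPM in DN inputs and 322 to 355 in CTRL inputs (9 of 12 positive, median 0.39, 0 passed). Of these genes only Epas1 and Slc2a1 did not overlap by gene. Epas1, the most abundant of the list, had 185, 206 and 175 CPM in DN inputs and 134, 160 and 160 in CTRL inputs. The part of these levels in the values of the members, Bnip3 included, was not tested.

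**Figure D4:**
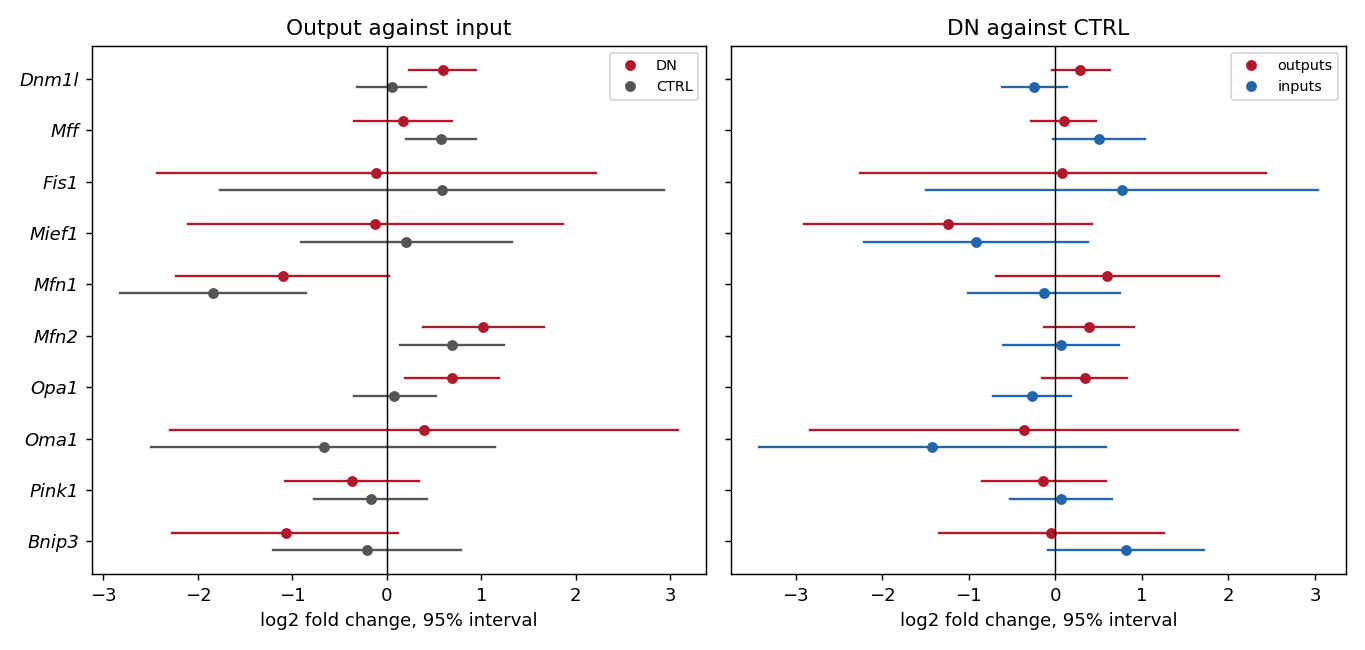
Fitted log2 fold changes (x axis) with 95% intervals for the 10 genes, output against input on the left and DN against CTRL on the right. Colours mark DN and CTRL, or outputs and inputs. On the right every interval includes 0, and on the left those of Dnm1l, Mfn2 and Opa1 in DN and of Mff, Mfn2 and Mfn1 in CTRL do not, before adjustment.

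The difference between the output-input change of DN animals and that of CTRL animals was tested as an interaction. By edgeR 0 of the 10 passed, where 0% of 15011 genes did, and DESeq2 and limma-voom called 0 members. Dnm1l was the 1 member with an unadjusted p below 0.05 (6.22% of all genes), at 0.54 ± 0.23 (edgeR adjusted p = 0.747), with an interval of 1.04 to 2.02-fold. Opa1 was at 0.61 ± 0.32, Mfn1 at 0.73 ± 0.65 and Mfn2 at 0.33 ± 0.37. On the negative side were Mff at -0.40 ± 0.30 and Bnip3 at -0.86 ± 0.67. In the same test 0 of 10 oligodendrocyte markers were positive (median -0.60) and 1 of 10 astrocyte markers (median -0.29), against a median of -0.02 over all genes, with 0 markers passed. Their part in the values of the members was not tested. The separation of outputs from inputs of Dnm1l and Opa1 in DN animals, and of Mff and Mfn1 in CTRL animals, was thus not shown to differ between the conditions.

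Among the 8 members with a mean of at least 5 CPM, likeness was measured as the mean absolute difference of log2 levels, each centred on its own mean, over the 12 libraries. Of the 28 pairs, Opa1 and Dnm1l were nearest at 0.20 and Mfn1 and Mfn2 farthest at 1.10. Among all 7874 genes of that level, those near to Dnm1l included Rock2 and Tro (0.09 and 0.11). The nearest to Opa1 were Sgip1, Ddx3y and Glrb (0.11 to 0.13), to Mff Tub, Vldlr and Kcnip4 (0.11 to 0.12) and to Mfn2 Mrpl39, Cadps2 and Slmap (0.10 to 0.16). The rarer members had looser neighbours, which were Efcab2, Snx5 and Chic1 for Bnip3 (0.24 to 0.25), Pcp4l1, Hadhb and Sst for Mfn1 (0.27 to 0.33) and Ifnar2, Tent4a and Chd4 for Mief1 (0.34 to 0.36).

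Lists of other genes of the same pathways were set beside the members. In output against input, 1 gene passed by edgeR. It was Vps13d, a lipid transfer protein needed for mitochondrial clearance, which fell in CTRL outputs (26.6, 27.1 and 30.2 CPM, against 52, 78.4 and 50 in CTRL inputs, log2 fold change -1.11 ± 0.25, adjusted p = 0.0363). Its call ended without CTRL pool 1, 2 or 3 (adjusted p = 0.202, 0.33 and 0.0736), with limma-voom (0.0559) and in 1 fit of all 12 libraries (0.15), and ranged over the 12 alternatives between 0.000616 and 0.33. In DN animals it was at -0.21 (adjusted p = 0.863). So 1 of 17 other genes of the PINK1-Parkin pathway was lower in CTRL outputs and 0 of 17 passed in DN, with medians of 0.26 in DN and 0.13 in CTRL. Of 16 mitophagy receptors and adaptors 0 passed (medians 0.18 in DN and -0.14 in CTRL). Likewise 0 passed of 13 other fission genes (-0.05 and 0.32), of 15 other fusion and inner membrane genes (0.41 and 0.07), of 10 genes of mitochondrial traffic (0.13 and -0.00), and of 11 and 12 genes of the hypoxia response (-0.64 and -0.03). Medians over all genes were 0.00 in DN and 0.02 in CTRL.

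Apart from Vps13d in CTRL animals, the 2 genes of smallest unadjusted p in each list did not pass. In DN outputs against DN inputs these were Fbxo7 at 1.0 ± 0.29 and Rhot1, a GTPase of the outer mitochondrial membrane, at 1.12 ± 0.34, then Optn, the autophagy receptor optineurin, at 2.28 ± 0.61 and Nipsnap1 at 1.03 ± 0.57. Further ones were Mtfp1 at 1.84 ± 0.75, Inf2 at -3.03 ± 1.27, Afg3l2, a subunit of an inner membrane protease, at 1.44 ± 0.43, Phb at 1.63 ± 0.93, Mtx2 at 0.93 ± 0.47, Kif5a at -0.25 ± 0.16, Epas1 at -0.79 ± 0.22 and P4ha1 at -1.05 ± 0.70. In CTRL outputs against CTRL inputs they were, after Vps13d, Rhot1 at 1.03 ± 0.35, Bnip3l, the close relative of Bnip3, at -0.44 ± 0.18, Nbr1 at -0.59 ± 0.34, Gdap1 at 0.32 ± 0.15 and Dnm2 at -1.21 ± 0.71. The others there were Immt at 0.94 ± 0.32, Phb2 at 1.27 ± 0.64, Kif5a at -0.34 ± 0.15, Armcx3 at 1.08 ± 0.54, Egln3 at -3.72 ± 0.97 and Epas1 at -0.45 ± 0.17.

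Between DN and CTRL, 0 genes of these 6 lists passed in outputs, in inputs or in the interaction. In outputs the list medians ran from -0.04 for mitochondrial traffic to 0.32 for fusion and inner membrane genes, against 0.01 over all genes. The summed levels of the PINK1-Parkin list did not overlap, with 702 to 798 CPM in DN outputs and 628 to 688 in CTRL outputs (13 of 18 positive, median 0.20). Those of the other lists overlapped in outputs. Optn had 15.7, 14.2 and 19.1 CPM in DN outputs and 6.76, 6.77 and 6.72 in CTRL outputs (1.27 ± 0.47, edgeR adjusted p = 0.911), and Sqstm1, the adaptor p62, had 31.6, 42.5 and 42.6 CPM in DN outputs and 26.9, 20 and 23.3 in CTRL outputs (0.73 ± 0.31, adjusted p = 0.911). Of the 85 listed genes with levels, DN outputs were above CTRL outputs without overlap for 9 (Optn, Sqstm1, Bnip3l, Phb, March5, Tomm20, Tomm22, Tomm40 and Tomm70a) and below for 3 (Mul1, Mtfr1l and Gdap1), where 5.17% and 5.87% of all genes tested lay. These genes, other than those of smallest p, are named after their values were seen. The next were Tomm22, an import receptor subunit, at 0.97 ± 0.38, Ambra1 at -0.57 ± 0.34, Phb, a prohibitin, at 1.89 ± 0.80, Immt at -0.55 ± 0.31, Mul1 at -1.47 ± 0.86 and March5 at 0.65 ± 0.40. The others were Armcx1 at 0.72 ± 0.49, Trak2 at -0.48 ± 0.37, Egln3 at 2.80 ± 1.46 and Pdk1 at -0.85 ± 0.47. In inputs the corresponding genes were Ambra1 at -1.04 ± 0.46, Park7 at 1.42 ± 0.79, Optn at -1.34 ± 0.64, Sqstm1 at 0.60 ± 0.30, Mtch2 at 0.90 ± 0.51, Yme1l1 at 0.45 ± 0.28, March5 at -0.75 ± 0.43, Slc25a46 at 0.27 ± 0.23, Mtx2 at -0.90 ± 0.44, Armcx3 at 0.90 ± 0.61, Epas1 at 0.32 ± 0.16 and Vegfa at 1.03 ± 0.57. In the interaction they were Optn at 2.62 ± 0.73 (edgeR adjusted p = 0.691), Bnip3l at 0.65 ± 0.31, Vps13d at 0.90 ± 0.51, Tomm40 at 2.64 ± 1.53, Immt at -0.90 ± 0.41 and Afg3l2 at 1.11 ± 0.58. The last of these were March5 at 1.41 ± 0.54, Mul1 at -1.61 ± 1.10, Mtx2 at 1.11 ± 0.61, Trak2 at -0.86 ± 0.48, Egln3 at 3.07 ± 1.85 and Pdk1 at -1.21 ± 0.78.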

How the data were processed

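RNA was counted in 12 libraries from 6 pools of 6 animals, 3 libraries per group. The deposited values are whole-number counts of reads per Ensembl gene, with no normalization. The submitters' processing notes name HTSeq 0.6.1, STAR 2.4.2a, cutadapt 1.3 and the build GRCm38. The labels' protocols state linear amplification of every sample (NuGEN Ovation). The sources used here do not give the annotation release or tool settings. The 5 classes of reads without a gene were left out; they included reads of ambiguous assignment (1.24 to 3.38% of the gene counts) and reads of no unique alignment (12.9 to 18.3%).

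Symbols, positions and exon lengths came from GENCODE M21 on GRCm38 (98.9% of 46517 identifiers matched). Counts were tested with edgeR 4.0.16 in R 4.3.3: TMM, filterByExpr (minimum count 10, minimum total 15), a quasi-likelihood test, two-sided, Benjamini-Hochberg over all genes, threshold 0.05. All 10 members passed the filter in each comparison. Each comparison used its 6 libraries, and the interaction used 12. Standard errors and 95% intervals were derived from the F statistic. Counts are subject to counting error and to the spread between pools.

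Input and output of a number come from 1 pool, per the series' design text. Deviations from group means correlated within a pool at r = -0.002 to 0.156, and DN and CTRL pools share only a number. Alternatives were DESeq2 1.42.0, limma-voom (limma 3.58.1), other scalings and filters, a block, and leaving out pools. The fits were tested on simulated data. The members and lists were chosen with earlier results of these data known, and leaving out pools from the ratios and the alternatives for Vps13d were added after seeing the data. Members were all named; of other lists, genes past the threshold, or else the 2 of smallest unadjusted p, were named. For likeness the 3 nearest genes are given for each member with a comparison of groups that did not overlap, except that 1 of those of Dnm1l is not reported here.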

Additional observations from a re-analysis of the deposited data

How the results depend on the processing

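Of the members, 0 passed in either comparison of DN with CTRL or in the interaction under any alternative run. In output against input the count of members passed was 0 by edgeR as designed. In DN it was 2 with DESeq2, 2 without a filter and 2 in 1 fit of all 12 libraries. In CTRL it was 2 with DESeq2 and 1 each with DESeq2 size factors, upper quartile scaling, no filter and a mean of at least 5 CPM. Leaving out a pool gave 0 members each time. With the pool as a replicate block it was also 0, with Mfn1 in CTRL at -1.82 (adjusted p = 0.0738), Mfn2 in DN at 1.06 (0.108) and Dnm1l in DN at 0.58 (0.106). The replicate number as a block between DN and CTRL joins unrelated animals and gave 0 genes of 13221 in inputs.

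Over all genes, DN against CTRL called 0 in outputs by edgeR (50 with DESeq2, 1 with limma-voom). In inputs it called 1, against 2 with DESeq2, 8 with limma-voom, 39 without a filter, 0 with DESeq2 size factors, upper quartile scaling, 5 CPM, the replicate block, no mitochondrial genes or 1 fit of 12 libraries, and 0 to 8 without 1 pool. Output against input called 441 genes in DN (1116 with DESeq2, 976 without a filter, 673 in 1 fit of 12 libraries, 115 to 148 without 1 pool) and 431 in CTRL (1161 with DESeq2, 903 without a filter, 45 to 214 without 1 pool). The interaction called 0 (99 with DESeq2, 54 without a filter).

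Signs of log2 fold changes near 0 turned; the cause was not tested. For DN against CTRL in inputs, limma-voom and upper quartile scaling gave -0.05 and -0.01 for Mfn2 and -0.08 and -0.00 for Pink1, and values without 1 pool ran from -0.11 to 0.26 for Mfn2, -0.10 to 0.29 for Pink1 and -0.38 to 0.23 for Mfn1. In outputs they ran from -0.32 to 1.0 for Fis1, -0.35 to 0.18 for Pink1, -1.46 to 0.28 for Oma1 and -0.49 to 0.26 for Bnip3. For output against input in DN, limma-voom gave 0.09 for Fis1 and -0.18 for Oma1, and the pool as a replicate block -0.10 for Oma1. Without 1 DN pool the range was -0.45 to 0.22 for Fis1, -0.89 to 1.33 for Oma1, -0.01 to 0.47 for Mff, -1.44 to 0.49 for Mief1 and -0.80 to 0.21 for Vps13d. In CTRL, Dnm1l was at -0.01 with upper quartile scaling and -0.06 at 5 CPM, and Opa1 at -0.02 at 5 CPM. Without 1 CTRL pool the range was -0.09 to 0.16 for Dnm1l, -0.14 to 0.25 for Opa1 and -0.48 to 0.56 for Mief1. In the interaction it was -1.64 to 0.37 for Mief1, -0.48 to 0.17 for Pink1 and -0.22 to 2.14 for Oma1. Fis1 and Oma1 lie under the 5 CPM filter and have no value there, nor does Mief1 for DN against CTRL in inputs and output against input in DN. Counts of 11 to 281 per library limit what can be said of Fis1 and Oma1.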
